A study of Mus musculus with 48 samples.

Results

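Pttg1 is the mouse gene of securin, and it is described here with 7 other genes of chromosome 11, 8 of the 55450 genes counted. Pttg1 and Ublcp1 were chosen by their measured difference between cells that lack both HMGN1 and HMGN2 (DKO) and wild type (WT) cells in these same libraries. Slu7, Ccnjl, Pwwp2a, Ttc1 and Rnf145 were taken for their position, in a window of chromosome 11 that runs from just below Pttg1 to just above Rnf145 (mm10), and the question put to them was whether a difference between DKO and WT extended to the genes beside Pttg1 and Ublcp1. Gm12663 was listed with them, but GENCODE M21 places it far from this window, at chr11:16635109-16636066, so 7 of the 8 genes lie inside it. It is kept because it is a copy of the Ublcp1 coding sequence. The differences of Pttg1, Ublcp1 and Gm12663 between DKO and WT are therefore given as a description with no test, while those of the 5 genes taken for their position were tested over all genes.

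The study asked how loss of HMGN1 and HMGN2, proteins that bind nucleosomes, changes the conversion of white fat cell precursors into brown-like adipocytes. It sequenced RNA in 48 libraries, with 3 WT and 3 DKO libraries at each of 4 days in 2 cell types. Preadipocytes came from the inguinal white adipose tissue (iWAT) of mice aged 8 to 12 weeks and were collected at days 0, 3, 6 and 9. Mouse embryonic fibroblasts (MEFs) came from mid-gestation embryos and were collected at days 0, 4, 8 and 12. All groups carry the strain label C57BL/6, with the genotype Wild type or Hmgn1-/- and Hmgn2-/-, and the study's reporting summary lists the DKO mice as a congenic stock and the WT mice as C57BL/6. Both genotypes received insulin, dexamethasone, IBMX, T3 and rosiglitazone, for 4 days in preadipocytes and 8 days in MEFs, then insulin and T3 for 4 days. The knockout was constitutive, so the cells lacked both proteins before they were cultured. The sources call the libraries biological replicates but do not tie them to animals, embryos or litters, so p-values measure the spread among these libraries only.

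Securin is the protein that holds separase inactive until the anaphase-promoting complex, with its activator Cdc20, marks securin for destruction. Separase then cuts cohesin and the sister chromatids part. Pttg1 RNA is a known marker of dividing cells, and preadipocytes leave the cell cycle as they become adipocytes. The neighbours have unrelated roles. Slu7 is a factor of the second step of pre-mRNA splicing, Ccnjl is a cyclin J-like protein, and Pwwp2a is a chromatin protein that binds nucleosomes holding the histone variant H2A.Z. Ttc1 is a tetratricopeptide repeat adaptor protein, Ublcp1 is a phosphatase of the nuclear proteasome, and Rnf145 is a ubiquitin ligase of the endoplasmic reticulum in sterol control. Gm12663 is annotated as a processed pseudogene, a copy of a spliced RNA set back into the genome.

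In order along chromosome 11 (mm10, GENCODE M21), Pttg1 lies at chr11:43420250-43426251 on the minus strand and Slu7 at chr11:43433744-43447981 on the plus strand. Ccnjl lies at chr11:43528784-43586997 and Pwwp2a at chr11:43681998-43721491, both on the plus strand, and Ttc1 lies at chr11:43729512-43748008 on the minus strand. Ublcp1 lies at chr11:44454571-44470498 on the minus strand and Rnf145 at chr11:44518964-44565520 on the plus strand. The lower end of Ublcp1 is thus 1.03 Mb from that of Pttg1, with Slu7, Ccnjl, Pwwp2a and Ttc1 between the pair. All 7 are protein-coding genes, and the window holds 22 annotated genes in all. Pttg1 and Slu7 lie side by side at its lower edge, and Ublcp1 and Rnf145 lie near its upper edge.

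Libraries held 18962483 to 36006696 counts. Hmgn2 was at 0 to 10 counts in the DKO libraries against 744 to 6069 in WT, while Hmgn1 kept 1571 to 3493 counts in DKO against 1542 to 6120 in WT. The study deleted exons of each gene, and a count over the whole gene does not separate the deleted exons from the rest, so Hmgn1 does not check the labels here. The cell labels were read against marker lists. The summed level of 6 progenitor markers was 1967 to 2995 CPM (counts scaled for the depth of each library) at day 0 and day 3 of preadipocytes, and the summed level of 6 adipocyte markers (Adipoq, Fabp4, Plin1, Lpl, Cidec and Pparg) was 149 to 4588 CPM at those days and 19370 to 38149 CPM at days 6 and 9. The MEFs of day 0 had 3 of these 6, Plin1, Adipoq and Cidec, under 1 CPM in all libraries. Together the 6 still summed to 909 to 1093 CPM in WT and 1497 to 2126 CPM in DKO of that day. Macrophage markers (Ptprc, Adgre1, Cd68 and Csf1r) were present too. Their summed level was 1156 to 1358 CPM in WT and 544 to 1037 CPM in DKO MEFs of day 0. In WT preadipocytes it was 7.97 to 22.0 CPM at day 3 and 478 to 817 CPM at day 6, and in DKO 7.08 to 17.4 and 188 to 545 CPM. CPM values are scaled by TMM over the 24 libraries of a cell type.

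Pttg1 was several times higher in DKO than in WT late in differentiation in both cell types. In preadipocytes at day 6, the WT libraries had 4.35, 4.40 and 4.52 CPM and the DKO libraries 32.6, 33.9 and 38.4 CPM. At day 9, WT had 3.04, 3.24 and 3.40 CPM and DKO had 25.8, 34.9 and 44.3 CPM. In MEFs at day 12, WT had 2.64, 3.12 and 3.15 CPM and DKO had 22.8, 23.1 and 25.1 CPM. In these 3 comparisons every DKO library was above every WT library, with a gap wider than either group. Of all genes, 43.0%, 34.6% and 47.0% did not overlap there. The level in DKO over WT was 7.72-fold at preadipocyte day 6, 10.6-fold at preadipocyte day 9 and 7.83-fold at MEF day 12. On the log2 scale these differences were 2.95 (SE 0.11), 3.40 (SE 0.22) and 2.97 (SE 0.11), with 3 libraries a group.

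At the other days the Pttg1 difference was smaller, and it was near 0 at preadipocyte day 3. At preadipocyte day 0, WT had 4.40, 6.67 and 8.24 CPM and DKO had 9.46, 9.94 and 12.9 CPM, a log2 difference of 0.74 (SE 0.25). At preadipocyte day 3, WT had 9.88, 10.4 and 11.7 CPM and DKO had 9.22, 9.72 and 10.4 CPM, a log2 difference of -0.12 (SE 0.11), and this was the only day at which the groups overlapped. In MEFs, WT had 6.35, 7.07 and 8.53 CPM at day 0 and DKO had 12.9, 16.9 and 21.1 CPM, a log2 difference of 1.21 (SE 0.22). The MEF differences were 0.71 (SE 0.16) at day 4 and 0.83 (SE 0.23) at day 8, where every DKO library was again above every WT library. At these days 11.5% and 15.4% of all genes did not overlap. A search of the GENCODE M21 transcripts found no near copy of Pttg1, and its counts were whole numbers in every library.

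**Figure D1:**
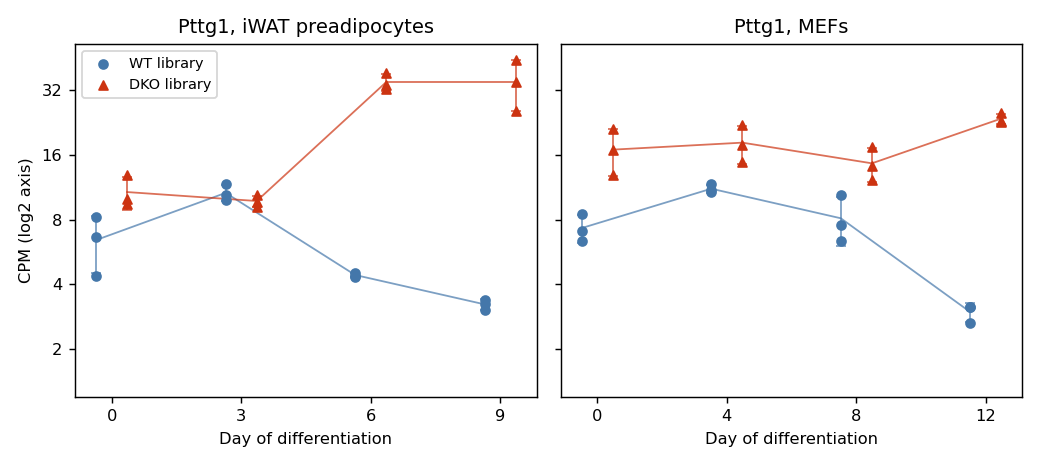
Pttg1 level in each library (points, CPM on a log2 axis) by day of differentiation in iWAT preadipocytes and MEFs, with WT as blue circles and DKO as red triangles; lines join group means and bars are 1 SD (n = 3). WT falls to about 3 CPM at the last day while DKO is at 25.8 CPM or more in preadipocytes of day 9 and at 22.8 CPM or more in MEFs of day 12.

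The time course of Pttg1 within each genotype was tested between consecutive days with edgeR's quasi-likelihood test and Benjamini-Hochberg adjustment over all genes. The choice of Pttg1 compared genotypes and not days, but it used these same libraries. The p-values over time are therefore not independent of that choice, and the same holds for Ublcp1. A gene was called at an adjusted p under 0.05 and a fold of at least 1.5. In WT preadipocytes Pttg1 rose 1.67-fold from day 0 to day 3 (adjusted p = 0.0419 by edgeR), then fell 2.41-fold from day 3 to day 6 (adjusted p = 0.000143 by edgeR). From day 6 to day 9 its log2 difference was -0.47 (SE 0.14, adjusted p = 0.0257 by edgeR), under the fold threshold. In DKO preadipocytes it moved the other way after day 3: it rose 3.46-fold from day 3 to day 6 (adjusted p = 1.51e-05 by edgeR). In DKO the log2 differences were -0.14 (SE 0.15) from day 0 to day 3 and -0.00 (SE 0.19) from day 6 to day 9, with adjusted p = 0.474 and adjusted p = 0.997 by edgeR. The rise in WT from day 0 to day 3 was lost when 5 of the 6 libraries were left out in turn, with log2 values from 0.52 to 0.80 and the highest adjusted p = 0.104 by edgeR.

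MEFs showed the same divergence at the last day. In WT MEFs Pttg1 rose 1.53-fold from day 0 to day 4 (adjusted p = 0.00821 by edgeR) and fell 2.89-fold from day 8 to day 12 (adjusted p = 0.00246 by edgeR). The first of these was under the fold threshold without day 0 replicate 3 or day 4 replicate 2, at log2 values of 0.52 and 0.58. In DKO MEFs the log2 difference from day 8 to day 12 was 0.58 (SE 0.15, adjusted p = 0.0198 by edgeR), and each day 12 library lay above each day 8 library. That is a fold just under the threshold, so it was not called, and it was called by DESeq2 (0.59, adjusted p = 0.00248), by edgeR with the replicate number as a block (0.60, adjusted p = 0.0423) and without DKO day 8 replicate 3 (0.73). Ordered by its mean, the Pttg1 level in WT was highest at preadipocyte day 3 (10.7 CPM) and MEF day 4 (11.2 CPM) and lowest at the last day of each cell type, at 3.23 and 2.97 CPM. Between these, the WT libraries of preadipocyte days 0 and 6 overlapped, as did those of MEF days 0 and 8. In DKO preadipocytes days 6 and 9 were highest and equal in mean, at 35.0 CPM each, and days 0 and 3 overlapped, at 10.8 and 9.78 CPM. In DKO MEFs day 12 was highest at 23.7 CPM, and days 0, 4 and 8, at 16.9, 18.3 and 14.6 CPM, overlapped one another.

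In WT cells the mitotic genes fell late in differentiation together with Pttg1, and in DKO cells they fell while Pttg1 did not. In WT preadipocytes, 13 of 19 mitotic genes of a fixed list rose from day 0 to day 3 (median log2 0.85, all genes 0.01), all 19 fell from day 3 to day 6 (-2.21, all genes -0.01) and all 19 fell from day 6 to day 9 (-1.88, all genes 0.00). In these steps 22.0%, 45.9% and 17.3% of all genes were called. In DKO preadipocytes, where Pttg1 rose from day 3 to day 6, all 19 fell over the same days (-3.16, all genes -0.02), where 50.2% of all genes were called. In MEFs all 19 fell from day 8 to day 12, in WT (-2.10) and in DKO (-2.50), with a median over all genes of -0.02 in both and 21.5% and 24% of all genes called. Pttg1 thus stood at 1.61% to 2.13% of the summed CPM of the 19 genes in WT preadipocytes of day 6 and at 24.2% to 36.3% in DKO. At day 9 the share was 3.96% to 5.66% in WT and 42.5% to 137% in DKO, and in MEFs of day 12 it was 1.55% to 1.84% in WT and 17.2% to 22.7% in DKO.

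**Figure D2:**
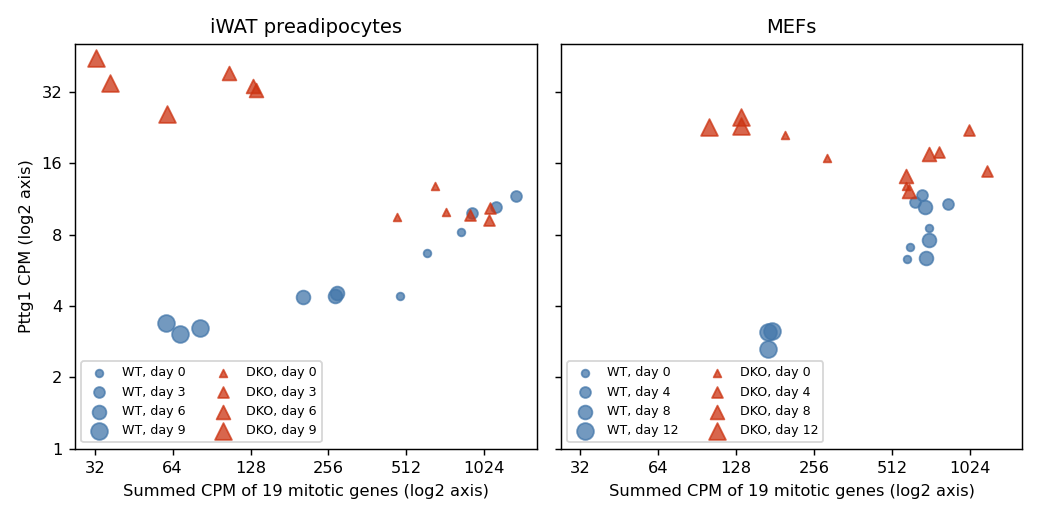
Pttg1 CPM against the summed CPM of 19 mitotic genes in each library (both axes log2), with WT as blue circles, DKO as red triangles and larger symbols for later days. Among WT libraries low Pttg1 goes with low mitotic sums, while DKO libraries of preadipocyte days 6 and 9 and MEF day 12 hold the highest Pttg1 levels of their cell type at mitotic sums of 32.3 to 135 CPM.

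Between genotypes the same mitotic genes had lower values in DKO at the late days at which Pttg1 was higher. At preadipocyte day 6, 18 of 19 were called lower and none higher, with a median log2 difference of -1.14, where 11.6% of all genes tested were called. Mki67, a marker of cycling cells, averaged 38.1 CPM in WT against 16.2 CPM in DKO (log2 -1.27, SE 0.18, adjusted p = 0.00513 by edgeR). Ccnb1, the cyclin that drives entry into mitosis, differed by -0.91 (SE 0.14, adjusted p = 0.00546 by edgeR). At MEF day 12, 7 of 19 were called lower and none higher, with a median of -0.53, where 7.98% of all genes were called. At preadipocyte day 9 none of the 18 tested was called by edgeR, 5 had an unadjusted p under 0.05 and DESeq2 called 1, with a median of -0.71 and all 18 values below 0, where 1.24% of all genes were called. The earlier MEF days differed in direction. At MEF day 4, where Pttg1 was also higher in DKO, all 19 mitotic values were positive (median 0.57), with 0 called by edgeR and by DESeq2 and 11 at an unadjusted p under 0.05, and at MEF day 0 all 19 were negative (-0.85), with 0 called by both and 5 at an unadjusted p under 0.05. In bulk RNA, fewer dividing cells and less of these RNAs per cell cannot be told apart.

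None of the listed partners of securin was called higher at preadipocyte days 6 and 9 or MEF day 12. Of all genes, 739 of 14694, 69 of 14700 and 601 of 15319 were called higher there. In lists of 15 and 24 genes, counts of 0 called higher say little. Espl1, which encodes separase, the enzyme that securin holds, averaged 3.33 CPM in WT against 1.94 CPM in DKO at preadipocyte day 6 (log2 -0.82, SE 0.20, adjusted p = 0.0228 by edgeR). At MEF day 12 it averaged 3.33 CPM in WT against 2.11 CPM in DKO (-0.69, SE 0.23, adjusted p = 0.0291 by edgeR), and at preadipocyte day 9 the difference was -1.15 (SE 0.30, adjusted p = 0.0743 by edgeR). Cdc20 differed by -1.27 (SE 0.19, adjusted p = 0.00574 by edgeR) at preadipocyte day 6 and by -0.84 (SE 0.20, adjusted p = 0.00369 by edgeR) at MEF day 12. Of the 15 genes of separase and cohesin, 3 were called lower and none higher at preadipocyte day 6 (median -0.10) and 1 lower and none higher at MEF day 12 (-0.06). Of the 24 genes of the anaphase-promoting complex and spindle checkpoint, 5 were called lower and none higher at preadipocyte day 6 (-0.05) and 1 lower at MEF day 12 (-0.04). At preadipocyte day 9 edgeR called 0 of the 15 and 0 of the 24, and DESeq2 called 1 and 0, where edgeR called 1.24% of all genes. Of all genes, 11.6% and 7.98% were called at preadipocyte day 6 and MEF day 12, so the counts at MEF day 12 do not exceed the share over all genes. The medians over all genes were -0.01 and 0.00 in these fits.

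Markers of the cell types moved in the same comparisons. At preadipocyte day 6 the summed CPM of the 6 adipocyte markers was 19370 to 23400 in WT and 25740 to 31689 in DKO, at day 9 it was 24540 to 25769 and 31535 to 38149, and at MEF day 12 it was 16231 to 16603 and 24667 to 25891. The 6 had positive differences in all 3 comparisons, and 4 of them, Adipoq, Fabp4, Plin1 and Cidec, were called higher at MEF day 12. At preadipocyte days 6 and 9 edgeR called 0 of the 6 and DESeq2 called 1 and 0. There 4 and 6 of them had an unadjusted p under 0.05. The shares of all genes called by edgeR were 11.6%, 1.24% and 7.98% at preadipocyte days 6 and 9 and MEF day 12. The summed CPM of 4 macrophage markers (Ptprc, Adgre1, Cd68 and Csf1r) was 478 to 817 in WT and 188 to 545 in DKO at preadipocyte day 6, 449 to 799 and 230 to 431 at day 9, and 726 to 755 and 552 to 613 at MEF day 12. The summed CPM of 6 progenitor markers was 957 to 1305 in WT and 431 to 752 in DKO at preadipocyte day 6, 1148 to 1500 and 630 to 1427 at day 9, and 2216 to 2295 and 1610 to 1804 at MEF day 12. Of the 6, Dlk1 was called higher and Pdgfrb and Thy1 lower at preadipocyte day 6, and Dlk1 was called lower at MEF day 12. Of the 4 macrophage markers edgeR called 0 in each of the 3 comparisons, while DESeq2 called 1, 4 and 0 lower. The summed level of 3 endothelial markers was 2.47 to 22.3 CPM in all groups of both cell types, and 1 of the 2 tested was called lower at MEF day 12. No adipocyte, progenitor or macrophage marker was under 1 CPM in all libraries of a group at those late days. Their part in the Pttg1 difference was not tested.

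The genes whose level tracked Pttg1 most closely were different in the 2 genotypes. Over the 12 WT preadipocyte libraries the highest Pearson correlations of log2(CPM + 0.5) with Pttg1, among 13746 genes, included those of Ncapd2 (0.988) and Mcm4 (0.986). These take part in chromosome condensation and DNA replication. Over the 12 DKO preadipocyte libraries they were Tmem82 (0.996), Ppp1r3b (0.995) and Mkrn2 (0.992), among 13623 genes. The median correlation of the mitotic list with Pttg1 was 0.932 in WT and -0.929 in DKO, where the medians over all genes were -0.0298 and 0.0790. In MEFs the closest were Thy1 (0.985), Brip1 (0.984) and Mad2l1 (0.982) in WT and Mettl27 (0.946), Gstm1 (0.935) and Tmco4 (0.923) in DKO, and the mitotic medians were 0.913 and -0.591. Of the neighbours, Rnf145 correlated with Pttg1 at 0.892 in WT and -0.876 in DKO preadipocytes, and Ttc1 at -0.894 and 0.927, while Ublcp1 was at -0.334 and 0.855, Slu7 at -0.340 and 0.0250 and Pwwp2a at 0.684 and -0.0546. In MEFs Rnf145 was at 0.129 in WT and -0.675 in DKO, Ttc1 at -0.305 and 0.598, Ublcp1 at 0.431 and -0.0277, Slu7 at -0.339 and 0.331 and Pwwp2a at 0.167 and -0.426. These values are descriptions, since the 12 libraries of a genotype share 4 days and any gene that moves with differentiation can correlate.

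Ublcp1, at the far end of the window, was higher in DKO at every day in both cell types. In preadipocytes the WT libraries had 23.4, 23.4 and 25.4 CPM at day 0 and the DKO libraries 32.1, 32.3 and 36.6 CPM. At day 9 WT had 29.3, 31.2 and 31.6 CPM and DKO had 49.1, 50.1 and 51.5 CPM. In MEFs of day 4, WT had 43.42, 44.4 and 44.4 CPM and DKO had 63.0, 63.0 and 63.7 CPM, and at day 12 WT had 32.6, 34.03 and 34.2 CPM and DKO had 50.7, 50.7 and 53.1 CPM. Every DKO library lay above every WT library in all 8 comparisons, where 11.5% to 47.0% of all genes did not overlap. Ublcp1 was chosen by this difference. The log2 differences were 0.48, 0.49, 0.55 and 0.68 at preadipocyte days 0, 3, 6 and 9, with SE from 0.06 to 0.08. In MEFs they were 0.81 (SE 0.14) at day 0 and 0.51, 0.53 and 0.59 at days 4, 8 and 12, with SE from 0.05 to 0.07. As folds these ran from 1.40 to 1.76, close to the fold of 1.5 used for calls, with the 1.51 of MEF day 12 just inside it and the 1.47 of preadipocyte day 6 just outside.

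Gm12663 showed the opposite. Its level was 1.70, 2.09 and 2.93 CPM in WT preadipocytes of day 0 and 0.486, 0.488 and 0.548 CPM in DKO. At day 9 it was 2.01, 2.13 and 2.25 CPM in WT and 0.0888, 0.240 and 0.389 CPM in DKO. In MEFs of day 12 it was 1.48, 1.67 and 1.89 CPM in WT and 0.0515, 0.0845 and 0.217 CPM in DKO. Every DKO library was below every WT library in all 8 comparisons, where 11.5% to 47.0% of all genes did not overlap. The log2 differences were -2.13, -2.26, -3.28 and -3.15 in preadipocytes and -3.87, -3.77, -2.97 and -3.84 in MEFs (SE from 0.30 to 0.47). The DKO values rest on few reads, 1 to 18.1 expected counts in a library against 29.9 to 86.05 in WT.

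**Figure D3:**
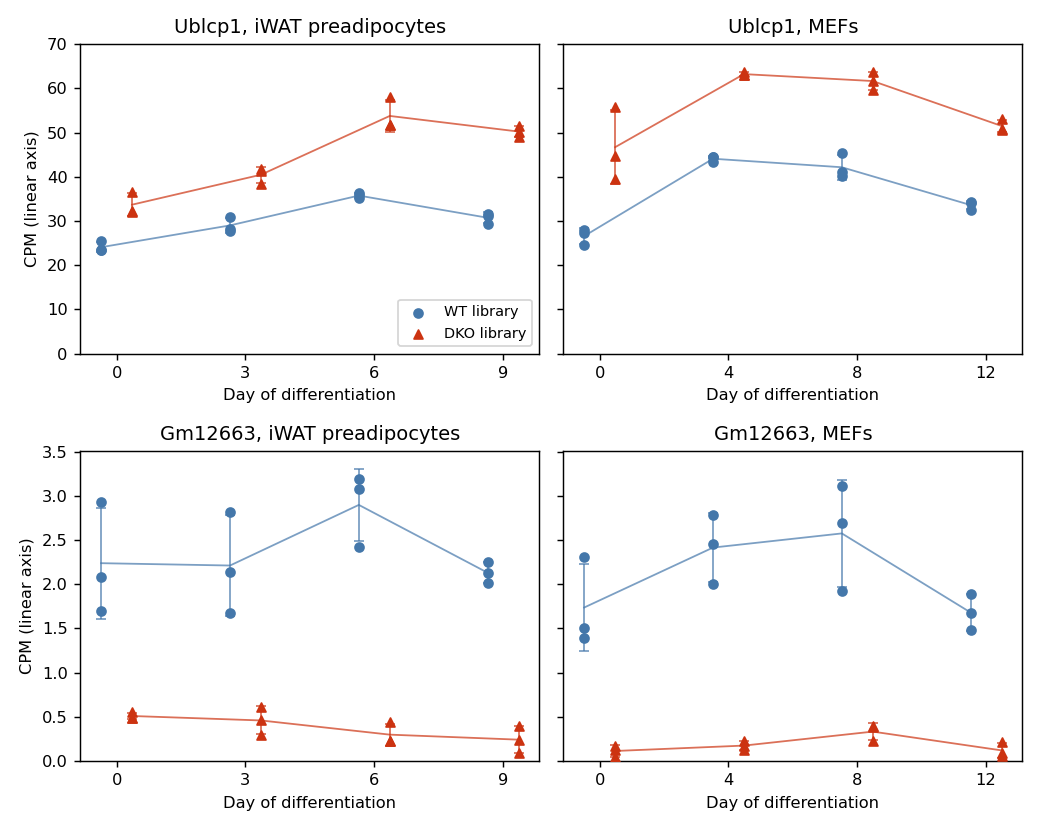
Ublcp1 (top) and Gm12663 (bottom) levels in each library (points, CPM on a linear axis from 0) by day, with WT as blue circles, DKO as red triangles, lines through group means and bars of 1 SD (n = 3). At every day the DKO points lie above the WT points for Ublcp1 and below them for Gm12663, which reaches 3.19 CPM at most.

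The pair shares most of its sequence, which limits how far the 2 levels can be told apart. Gm12663 has 958 bases and covers the whole Ublcp1 coding sequence of 957 bases from its start codon on, with 5 substitutions and 1 inserted base, 99.4% identity. The stretches below show each difference in the sense direction, first as in Ublcp1 and then as in Gm12663, with the differing base in capitals, from the GENCODE M21 transcripts. Positions count from 1 at the A of the Ublcp1 start codon. For the exon 6 stretch the chromosome positions printed are those of the inserted base. C481T lies at 44463724 in Ublcp1 and 16635586 in Gm12663.
Ublcp1, A123G, exon 2, chromosome 11 position 44466846: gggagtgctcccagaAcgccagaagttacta
Gm12663, chromosome 11 position 16635944: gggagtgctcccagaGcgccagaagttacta
Ublcp1, T431G, exon 5, chromosome 11 position 44465382: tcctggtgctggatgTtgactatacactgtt
Gm12663, chromosome 11 position 16635636: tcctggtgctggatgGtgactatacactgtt
Ublcp1, C481T and the inserted T after position 492, exon 6, chromosome 11 position 44463713: gagCtaatgagaccatatcttcatgaattt
Gm12663, chromosome 11 position 16635574: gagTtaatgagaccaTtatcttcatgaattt
Ublcp1, A583C, exon 7, chromosome 11 position 44461321: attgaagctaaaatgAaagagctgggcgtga
Gm12663, chromosome 11 position 16635483: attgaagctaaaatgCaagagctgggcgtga
Ublcp1, A932G, exon 11, chromosome 11 position 44455613: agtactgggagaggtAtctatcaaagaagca
Gm12663, chromosome 11 position 16635134: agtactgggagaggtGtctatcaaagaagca
Between these places a read of 50 bases looks the same from either gene. Of the 909 stretches of 50 bases in Gm12663, 73.8% occur unchanged in Ublcp1, and of the 2039 in the Ublcp1 transcript, 32.9% occur unchanged in Gm12663. These shares count single stretches, while the reads were paired, and the share of read pairs that match both genes was not counted. RSEM divides reads that match both, and its estimates had fractions for both genes in every WT library. In DKO they were whole for both genes in some libraries, such as 945 and 1 in replicate 1 of MEF day 0.

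Summing the pair leaves the direction of Ublcp1 as it was. Gm12663 held 4.33% to 10.4% of the summed counts of the pair in WT libraries and 0.102% to 1.68% in DKO libraries. With both genes summed before the fit, the log2 differences between DKO and WT were 0.38, 0.40, 0.45 and 0.59 at preadipocyte days 0, 3, 6 and 9 and 0.72, 0.44, 0.45 and 0.52 at MEF days 0, 4, 8 and 12. Summed CPM of the DKO libraries stayed above those of WT in all 8 comparisons, for example 31.3, 33.4 and 33.9 in WT and 49.2, 50.5 and 51.7 in DKO at preadipocyte day 9. The sum was added after the data were seen.

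Over time Ublcp1 was called at 1 step only. In WT MEFs it rose 1.67-fold from day 0 to day 4 (adjusted p = 0.000278 by edgeR), and in DKO MEFs the difference was 0.46 (SE 0.14, adjusted p = 0.0475 by edgeR), under the fold threshold. From day 8 to day 12 the log2 differences were -0.41 (SE 0.07) in WT MEFs and -0.37 (SE 0.06) in DKO MEFs, and from day 3 to day 6 they were 0.30 (SE 0.08) and 0.36 (SE 0.08) in preadipocytes, none of them past the fold threshold. The differences between the genotypes in these courses were not tested. The genes closest to Ublcp1 over all 24 libraries were 4930458D05Rik, Clec16a and Gatc in preadipocytes (Pearson correlations of 0.956, 0.956 and 0.955) and Dcun1d1 (0.965), Aasdh (0.923) and Deaf1 (0.919) in MEFs. These libraries hold both genotypes, and Ublcp1 was chosen by its difference between them. Any gene that differs between the genotypes can therefore rank high, and the values are descriptions.

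Subunits of the 19S proteasome, the particle that the Ublcp1 protein acts on, had small differences between genotypes, mostly above 0 at the late days. Of 17 genes, none was called by edgeR or DESeq2 at preadipocyte days 6 and 9 or MEF day 12, where 3, 3 and 15 had an unadjusted p under 0.05 by edgeR, with medians of 0.13, 0.10 and 0.16 and positive values for 17, 16 and 16 of them. Over all genes, 11.6%, 1.24% and 7.98% were called in these fits by edgeR. An unadjusted p under 0.05 was found for 5468 of 14694, 3984 of 14700 and 6480 of 15319 genes. At preadipocyte day 0, where Ublcp1 was already higher in DKO, 16 of 17 values were negative (median -0.11) and 1 gene, Psmd8, was called lower (log2 -0.93, adjusted p = 0.00665 by edgeR), where 0.218% of all genes tested were called. At MEF day 0, where Ublcp1 was higher too, 16 of 17 values were positive (median 0.14), with 0 called by edgeR and by DESeq2 and 2 at an unadjusted p under 0.05. There 0.102% of all genes tested were called.

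None of the 5 genes taken for their position was called. Over the 8 comparisons they gave 37 tested values, with 0 calls by edgeR and by DESeq2. Of the 37, 5 had an unadjusted p under 0.05 and 3 an adjusted p under 0.05, and limma-voom called 1, Rnf145 at preadipocyte day 6. Ccnjl did not pass the filter on low counts at preadipocyte days 0, 3 and 6. The shares of all genes called, against which these counts of 0 are read, were 0.218%, 0.337%, 11.6% and 1.24% at preadipocyte days 0, 3, 6 and 9 and 0.102%, 0.0905%, 0.0595% and 7.98% at MEF days 0, 4, 8 and 12. With 4 or 5 genes tested at each day, a count of 0 says little at any of the 8 days.

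Slu7, the nearest neighbour, has its lower end 0.013 Mb from the lower end of Pttg1. At preadipocyte day 6 the WT libraries had 37.2, 38.4 and 40.3 CPM and the DKO libraries 36.9, 40.8 and 43.3 CPM, which overlap. The log2 difference was 0.03 (SE 0.09, adjusted p = 0.838 by edgeR). At preadipocyte day 9 it was -0.02 (SE 0.08, adjusted p = 0.899 by edgeR) and at MEF day 12 it was 0.04 (SE 0.05, adjusted p = 0.570 by edgeR). The 8 values ran from -0.03 to 0.21, with the highest at MEF day 0, where the DKO libraries lay above those of WT (SE 0.07, adjusted p = 0.527 by edgeR).

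Pwwp2a and Ttc1, between Pttg1 and Ublcp1, also stayed near 0. The log2 differences of Pwwp2a ran from -0.17 to 0.20 (SE 0.11 to 0.15, lowest adjusted p = 0.230 by edgeR). Those of Ttc1 ran from -0.18 to 0.21 (SE 0.06 to 0.11). The one Ttc1 value with an adjusted p under 0.05 was that of MEF day 12, where WT had 33.6, 34.6 and 35.2 CPM and DKO had 38.8, 41.2 and 41.5 CPM (log2 0.21, SE 0.06, adjusted p = 0.0106 by edgeR). The groups do not overlap, but the fold of 1.16 is below the threshold.

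Ccnjl was near the limit of what these libraries detect. Its highest library had 29 counts, and its group means ran from 0.109 to 1.15 CPM. In the 5 comparisons in which it was tested its log2 differences ran from -0.46 to -0.09 with SE of 0.34 to 0.79, so a difference as small as that of Ublcp1 was not detectable at this depth. At preadipocyte day 6, where it was not tested, it had 2 to 5 counts in WT and 6 to 22 counts in DKO, and without the filter on low counts it was called higher in DKO (log2 1.91, adjusted p = 0.0256 by edgeR). At preadipocyte day 9 it had 21 to 29 counts in WT and 12 to 27 counts in DKO. It passed the filter for the step from day 6 to day 9 in WT through day 9 alone, so its call there is not read as a result.

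Rnf145, near Ublcp1, had lower values in DKO late in differentiation. At preadipocyte day 6, WT had 78.4, 78.9 and 86.5 CPM and DKO had 51.5, 56.8 and 59.3 CPM. The groups were well apart, with a log2 difference of -0.58 (SE 0.08, adjusted p = 0.00505 by edgeR), and a fold of 1.49 that lies just under the threshold of 1.5. It was past the threshold with limma-voom (-0.59), with library size in place of TMM (-0.67) and when replicate 1 (-0.59) or 2 (-0.61) of WT, or replicate 1 of DKO (-0.63), was left out. At day 9, WT had 49.2, 50.2 and 53.0 CPM and DKO had 34.7, 42.3 and 43.3 CPM (log2 -0.37, SE 0.10, adjusted p = 0.0731 by edgeR). At MEF day 12, WT had 76.9, 77.8 and 79.9 CPM and DKO had 62.9, 70.0 and 72.2 CPM (log2 -0.22, SE 0.05, adjusted p = 0.00466 by edgeR). At the other 5 comparisons the values ran from -0.19 to -0.00, and at MEF day 8 the DKO libraries were below those of WT by -0.07 (SE 0.06).

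Rnf145 also moved with differentiation. In WT preadipocytes it rose 1.72-fold from day 0 to day 3 (adjusted p = 0.00266 by edgeR), fell 1.64-fold from day 3 to day 6 (adjusted p = 0.000837 by edgeR) and fell 1.62-fold from day 6 to day 9 (adjusted p = 0.000148 by edgeR). In DKO preadipocytes it fell 2.15-fold from day 3 to day 6 (adjusted p = 4.06e-05 by edgeR). In preadipocytes its level was highest at day 3, at 133 CPM in WT and 116 CPM in DKO, where the libraries overlap, and lowest at day 9, at 50.8 and 40.1 CPM. In WT MEFs the first step went the other way, from 107 CPM at day 0 to 75.5 CPM at day 4 (log2 -0.50, SE 0.06, adjusted p = 0.000634 by edgeR), under the fold threshold, and day 12 was at 78.2 CPM. In DKO MEFs it was at 106, 73.5, 90.3 and 68.4 CPM at days 0, 4, 8 and 12. Of 15 genes of sterol and liver X receptor control, 1 was called higher and none lower at preadipocyte day 6 (median 0.13) and at MEF day 12 (0.21), in both cases Abcg1, a share below the 11.6% and 7.98% of all genes called. Of the 15, 10 and 12 had positive values, and 8 and 12 an unadjusted p under 0.05, where 5468 of 14694 and 6480 of 15319 genes had one. The summed CPM of the 15 was 2769 to 3059 in WT and 3514 to 4372 in DKO at preadipocyte day 6. At MEF day 12 it was 2688 to 2716 and 3343 to 3546. Insig1, Abca1 and Adipor2 were not called in any of the late comparisons, and at MEF day 12 their log2 differences were 0.55 (SE 0.04), 0.26 (SE 0.04) and 0.49 (SE 0.04).

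**Figure D4:**
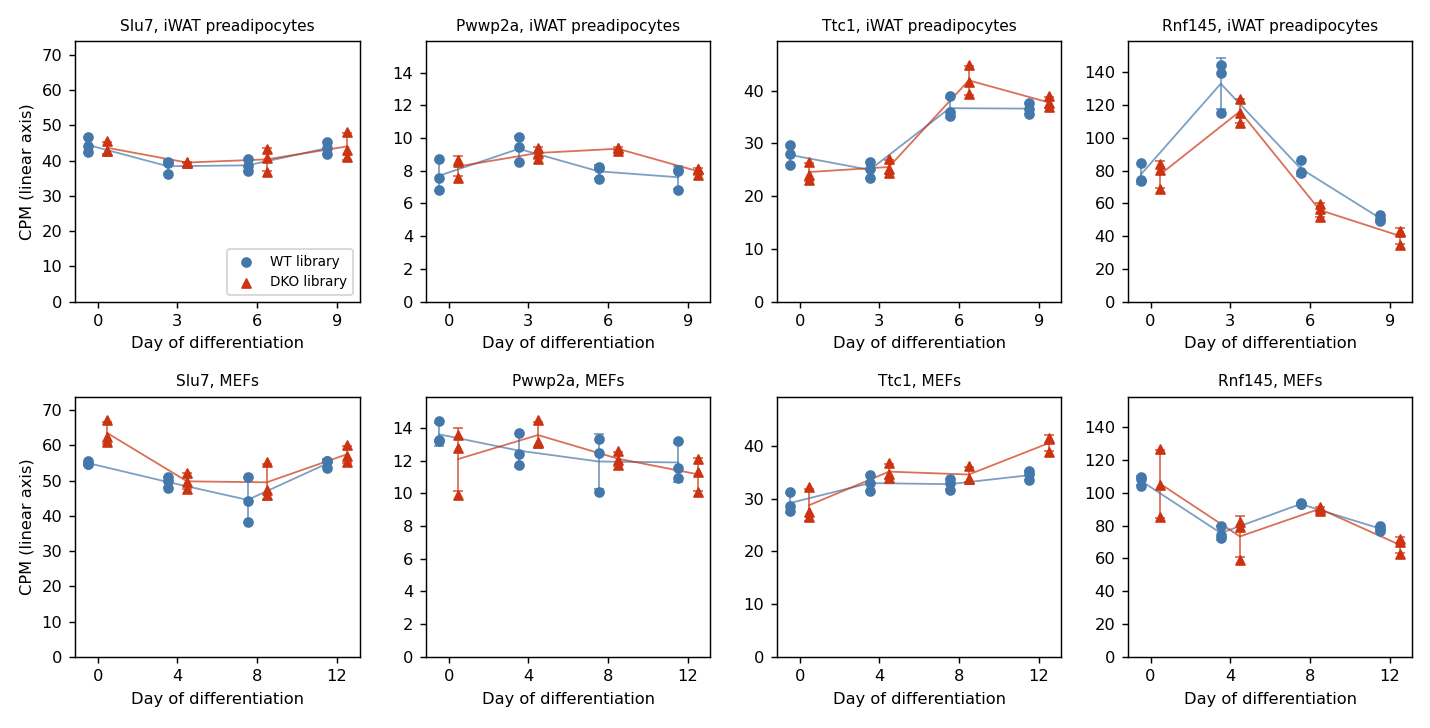
Levels of Slu7, Pwwp2a, Ttc1 and Rnf145 in each library (points, CPM on linear axes from 0) by day in iWAT preadipocytes (top) and MEFs (bottom), with WT as blue circles, DKO as red triangles, lines through group means and bars of 1 SD (n = 3). The genotypes run close together for Slu7, Pwwp2a and Ttc1, and the Rnf145 points of DKO lie below those of WT at preadipocyte days 6 and 9 and MEF day 12.

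Whether libraries of the 2 genotypes overlapped was also counted for the 5 genes, since this does not depend on the fold threshold. At preadipocyte day 6, 3 of the 4 tested did not overlap, Pwwp2a and Ttc1 with DKO higher and Rnf145 with DKO lower, where 43.0% of all genes did not overlap. At preadipocyte day 9 it was 1 of 5 (34.6% of all genes), Rnf145, and at MEF day 12 it was 2 of 5 (47.0%), Ttc1 and Rnf145. At preadipocyte days 0 and 3 it was 0 of 4 each (14.9% and 18.5%). At MEF days 0, 4 and 8 it was 1, 0 and 2 of 5 (18.6%, 11.5% and 15.4%). The genes that did not overlap went in both directions.

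The whole window was then counted. Of the 20 annotated window genes besides Pttg1 and Ublcp1, the 5 neighbours above included, 4 to 8 passed the filter in each comparison, and edgeR called 0 of them in each of the 8, while 7 of these values had an unadjusted p under 0.05 and DESeq2 called 1. Their median log2 difference was between -0.03 and 0.09. Only C1qtnf2, Adra1b and Gm12153 were tested besides the members, none of them at preadipocyte day 6, with values from -2.01 to 1.03. C1qtnf2, a secreted protein related to adiponectin, had 2.22, 2.90 and 2.95 CPM in WT and 0.345, 0.725 and 0.904 CPM in DKO at preadipocyte day 3 (log2 -2.01, adjusted p = 0.0971 by edgeR). It was called there by DESeq2, with an adjusted p = 0.000152. It had 52 to 88 counts in WT and 9 to 25 in DKO at that day. It passed the filter through the WT libraries, where it is high, so this call is not read as a result. At preadipocyte day 6, where it did not pass the filter, it had 9 to 20 counts in WT and 1 to 4 counts in DKO. With no filter it was called lower there (log2 -2.27, adjusted p = 0.00945 by edgeR), on few reads. At day 9 the DKO libraries were also below those of WT (-0.57, adjusted p = 0.252 by edgeR). In preadipocytes of day 0 and in MEFs at every day the groups overlapped. Adra1b, an adrenergic receptor, differed by 0.46 at MEF day 12 (adjusted p = 0.0456 by edgeR), under the fold threshold, and Gm12153, a long non-coding RNA, by -0.01 (adjusted p = 0.989 by edgeR). In the 1 Mb on either side, 1 to 3 of 19 genes passed the filter at each comparison, and edgeR and DESeq2 called 0 of them, with 3 values at an unadjusted p under 0.05. Ebf1, just above the window, was tested in all 8 comparisons, with log2 differences from -0.15 to 0.30. The highest was at MEF day 12 (adjusted p = 0.000143 by edgeR), under the fold threshold. Atp10b, below the window, had at most 57 counts and differed by 1.06 at MEF day 12 (adjusted p = 0.0694 by edgeR).

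**Figure D5:**
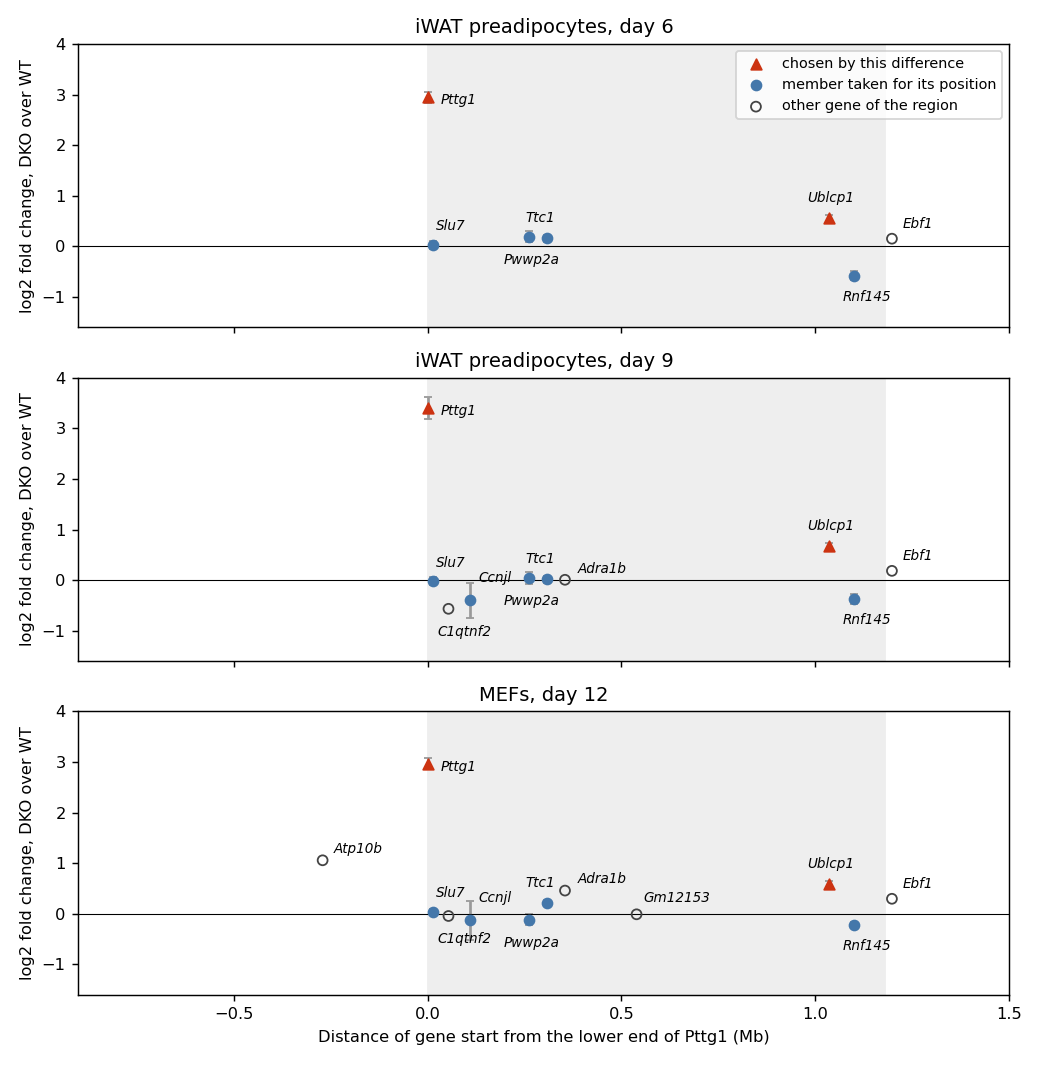
The log2 fold change of DKO over WT for each tested gene of the region against its distance from Pttg1 (Mb along chromosome 11) at preadipocyte days 6 and 9 and MEF day 12; red triangles are the 2 genes chosen by this difference, blue circles the members taken for position, open circles other genes, bars 1 SE (members only), and the shaded band is the window. Pttg1 stands at 2.95, 3.40 and 2.97 and Ublcp1 at 0.55, 0.68 and 0.59, while the genes between them lie between -0.57 and 0.46 and Atp10b, which lies below the window, is at 1.06 in MEFs.

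Calls over time were counted for all 8 members against the share of all genes. In WT preadipocytes 2 of 7 tested members were called from day 0 to day 3 (22.0% of all genes), 2 of 7 from day 3 to day 6 (45.9%) and 2 of 8 from day 6 to day 9 (17.3%), 1 of them Ccnjl, which passed the filter through day 9 alone. In DKO preadipocytes it was 0 of 7 (25.2%), 3 of 6 (50.2%) and 0 of 7 (9.70%). The libraries of DKO days 6 and 9 that share a replicate number deviated together, and with that number as a block 2265 rather than 1412 of 14558 genes were called, still with none of the members. In WT MEFs it was 2 of 8 (33.4%), 0 of 8 (0%) and 1 of 8 (21.5%), and in DKO MEFs 0 of 7 each time (21.4%, 0% and 24%). Where edgeR called 0 members, the number with an unadjusted p under 0.05 was 3 and 1 in DKO preadipocytes, 1 in WT MEFs and 4, 0 and 3 in DKO MEFs, and DESeq2 called 1 in these 6 comparisons, Pttg1 in DKO MEFs from day 8 to day 12. Ttc1 rose 1.59-fold from day 3 to day 6 in DKO preadipocytes (adjusted p = 0.000301 by edgeR), and in WT its difference of 0.55 (SE 0.08, adjusted p = 0.000882 by edgeR) was just under the fold threshold.

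Per kilobase of exon, the members differed widely in level. Group means ran from 12.1 to 20.6 CPM per kilobase for Ttc1, from 9.47 to 24.9 for Ublcp1, from 9.48 to 15.7 for Slu7 and from 5.15 to 17.1 for Rnf145. Pwwp2a ran from 1.38 to 2.47 CPM per kilobase, Gm12663 from 0.116 to 3.03 and Ccnjl from 0.0391 to 0.413. Pttg1 ran from 1.49 CPM per kilobase in WT MEFs of day 12 to 17.5 in DKO preadipocytes of day 6. At preadipocyte days 6 and 9 and MEF day 12 its means per kilobase were 17.5, 17.5 and 11.8 in DKO, within the range of Ublcp1, and 2.21, 1.61 and 1.49 in WT, within the range of Pwwp2a.

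Lists were also fixed for partners of Slu7 and Pwwp2a. Of 8 genes of the second splicing step, with Slu7, none was called in any of the 8 comparisons by edgeR or DESeq2, with 0 to 3 at an unadjusted p under 0.05 and medians of -0.01 to 0.08. Of 9 genes of H2A.Z and the Mta1 and Hdac complex that Pwwp2a binds, none was called in any of the 8 by edgeR or DESeq2, with 0 to 3 at an unadjusted p under 0.05 and medians of -0.09 to -0.00. The medians over all genes were between -0.01 and 0.01 in the 8 comparisons. With 0.0595% to 1.24% of all genes called in 6 of them, counts of 0 in lists of this size are no result about the partners.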

How the data were processed

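RNA was sequenced as paired reads of 50 bases from 48 libraries. Per the labels and the processing notes, the authors ran bcl2fastq 2.17, cutadapt 1.18, STAR 2.7.0f and RSEM 1.3.0 against mm10 and deposited expected counts per gene. RSEM divides reads between genes that share sequence, and 5.49% to 7.90% of the values in a library were not whole. The labels name polyA RNA and the study a total RNA kit, so the selection step is unsure. Counts were rounded, filtered with filterByExpr, scaled by TMM and tested for each cell type and day, or pair of days, with edgeR 4.0.16 (quasi-likelihood, robust) in R 4.3.3, with Benjamini-Hochberg adjustment over all genes tested. Calls needed an adjusted p under 0.05 and a fold of at least 1.5. DESeq2 1.42.0, limma 3.58.1 (voom, quantile), library size alone, other filters, a fit over all days, a replicate block and leaving out each library were alternatives. All 55450 gene identifiers matched GENCODE M21. The procedure was tested on simulated counts. Libraries sharing a replicate number deviated together, with every correlation over 0.1, only in DKO preadipocytes of days 0 and 3 (0.562, 0.407 and 0.501) and in preadipocytes of days 6 and 9, WT (0.453, 0.267 and 0.130) and DKO (0.459, 0.441 and 0.368). The members, the gene lists (mitosis, separase and cohesin, anaphase-promoting complex and checkpoint, 19S proteasome, sterol control, second splicing step, Pwwp2a partners, and adipocyte, progenitor, macrophage and endothelial markers) and the rule for named genes were chosen with earlier results of these data known. Named were all members, Hmgn1, Hmgn2, the window genes that passed the filter, Espl1, Cdc20, Ccnb1, Mki67, Insig1, Abca1 and Adipor2 from the lists, and the 3 genes closest to Pttg1 and to Ublcp1 in each set of libraries, of which 1 is not reported here. Psmd8, Abcg1, Atp10b, Ebf1 and the called adipocyte and progenitor markers were named after their values were seen.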

Additional observations from a re-analysis of the deposited data

Results flagged for a closer look

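The course of Pttg1 differed in direction between the genotypes at 2 steps. From day 3 to day 6 of preadipocytes, the log2 difference was 1.79 in DKO, where every later library lay above every earlier one, and -1.27 in WT, where every later library lay below, 3.06 apart. From day 8 to day 12 of MEFs it was 0.58 in DKO and -1.53 in WT, with the libraries separated in the same way, 2.12 apart. The difference between the genotypes was not tested in either case, and these libraries are among those by which Pttg1 was chosen. Groups of 3 libraries were not examined for outlying libraries.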

How the results depend on the processing

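Of 1782 alternative values of 156 results, 1712 kept direction and call or moved within the spread of replicates, and 0 called values reversed. The sign of an uncalled value differed 79 times, 75 of them for values under 0.2 in size. The sum of Ublcp1 with Gm12663, chosen after seeing the data, moved Ublcp1 to 0.38, 0.40, 0.45 and 0.59 at preadipocyte days 0, 3, 6 and 9 and to 0.44, 0.45 and 0.52 at MEF days 4, 8 and 12. With library size alone, Pttg1 was at 2.85 and Ublcp1 at 0.45 at preadipocyte day 6, and Ublcp1 was at 0.58 at day 9 and 0.53 at MEF day 12. With limma-voom, Gm12663 was at -3.03, -2.91 and -3.51 at preadipocyte days 6 and 9 and MEF day 12. Leaving out 1 library, Gm12663 ran from -2.29 to -1.89 and from -3.70 to -3.11 at preadipocyte days 0 and 6, from -3.70 to -2.75 at day 9, from -4.24 to -3.54 and from -4.01 to -3.58 at MEF days 0 and 4, and from -4.52 to -3.53 at day 12, on few DKO reads. Over time, Pttg1 ran from 0.52 to 0.96 (WT preadipocytes, day 0 to 3), from 0.52 to 0.74 (WT MEFs, day 0 to 4) and from 0.46 to 0.73 (DKO MEFs, day 8 to 12), and Ublcp1 from 0.36 to 0.60 (DKO MEFs, day 0 to 4). Pttg1 from day 8 to 12 of DKO MEFs was called with DESeq2 (0.59) and with the replicate block (0.60), though those numbers share only a label. Of the window genes besides Pttg1 and Ublcp1, 1 (C1qtnf2) was called at preadipocyte day 3 with DESeq2, no filter, 1 fit over all days or the block, which is not read as a result. At day 6, 1 was called with library size, limma-voom or no fold threshold (Rnf145) and 1 with the 0.5 CPM filter or 1 fit (C1qtnf2). With no filter 2 were called (C1qtnf2 and Ccnjl), and leaving out a library 0 to 2 (Rnf145 and C1qtnf2). At MEF day 12, 3 were called with no fold threshold. The cause was not tested. In the paired steps the block changed no member's call.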
